A study of Sus scrofa with 6 samples.

Results

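Genes of the small RNA pathways were examined in pig oocytes taken from large and from small ovarian follicles. The genes were chosen by name and were the PIWI genes PIWIL1, PIWIL2 and PIWIL3, the piRNA factors MAEL, MOV10L1, TDRKH, TDRD9 and HENMT1, and DICER1 and AGO2 of the microRNA and siRNA pathways. Of these 10 names, 9 had a row among the 19271 gene rows used, 8 under their symbol and PIWIL3 under the identifier ENSSSCG00000009950, which the name table pairs with it. TDRD9 was not analysed here. All 9 passed the filter on low counts and belonged to the 14091 genes tested.

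The oocytes came from prepubertal gilts whose ovaries were collected at an abattoir, and their cumulus cells had been removed before RNA was isolated. In the large group the oocytes were from follicles 3 to 6 mm across (3 libraries), and in the small group from follicles 1.5 to 1.9 mm across (3 libraries). No treatment or genotype separates the groups, and libraries were made from pooled oocytes, 360 by the protocol, which does not say whether per group or in all. The labels do not say whether replicates were separate collections, so the p-values reflect library-to-library spread that could be technical.

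PIWI-interacting RNAs, or piRNAs, are small RNAs of the germ line that guide PIWI proteins, a branch of the Argonaute family, to transposons and other transcripts. Their precursors are cut, trimmed and methylated at the end on the surface of mitochondria and in perinuclear granules called nuage. MicroRNAs and siRNAs are instead cut from hairpins or double-stranded RNA by DICER1 and loaded on AGO proteins. In mouse oocytes siRNAs carry much of the silencing and PIWIL3 is missing from the genome, whereas oocytes of several other mammals express PIWIL3.

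Total counts ranged from 8015357 to 56887282 in the large group and from 33298449 to 55342036 in the small group. Large-follicle library 3 was the shallowest and stood apart on the first principal component (39.2% of the variance), with a score of 54.5 against -15.0 to -6.03 for the other 5 libraries, so results are given with and without it. The summed level of 11 of 12 listed oocyte markers was 23644 to 27172 TPM in the large and 33172 to 34824 TPM in the small libraries. The 15 of 18 granulosa and cumulus markers with a row summed to 101 to 127 TPM in the large and 92.4 to 159 TPM in the small libraries, the 10 theca and stromal markers to 38.7 to 44.2 TPM in the large and 46.9 to 49.3 TPM in the small libraries, and the 10 blood, immune and endothelial markers to 7.49 to 9.50 TPM in the large and 10.6 to 11.7 TPM in the small libraries. The groups did not overlap for these sums, except for granulosa and cumulus markers, and none of these markers was at 0 in every library. Mean TPM over the 6 libraries was under 1 for 0 of the 11 oocyte markers and 8 of the 15 granulosa and cumulus markers. The same held for 7 of the 10 theca and stromal markers and 8 of the 10 blood, immune and endothelial markers. The part of these sums in the results was not tested. In bulk RNA such as this, fewer cells of a type and less RNA per cell cannot be told apart.

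All levels are in TPM, which the authors scaled by gene length and depth, so genes can be compared with each other on that scale. Values of single libraries stand in the order 1, 2 and 3 within each group. HENMT1 was the most abundant of the 9 genes, at 968 ± 60.7 TPM in large-follicle and 901 ± 37.6 TPM in small-follicle oocytes (SD, n = 3 each), and ranked 92 among the 19271 genes by mean TPM. It encodes the methyltransferase that protects the end of mature piRNAs. MAEL followed with 336 ± 24.7 TPM in the large and 359 ± 17.9 TPM in the small group, and PIWIL3 with 282 ± 36.4 TPM in the large and 264 ± 1.05 TPM in the small group. MOV10L1 was the least abundant, at 8.17 ± 0.957 TPM in the large and 9.81 ± 0.727 TPM in the small group. The order by mean was the same in both groups: HENMT1, MAEL, PIWIL3, AGO2, PIWIL1, TDRKH, DICER1, PIWIL2 and MOV10L1. In the large group the ranges of MAEL and PIWIL3 overlapped, as did those of TDRKH and DICER1. In the small group no neighbours in this order overlapped.

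**Figure D1:**
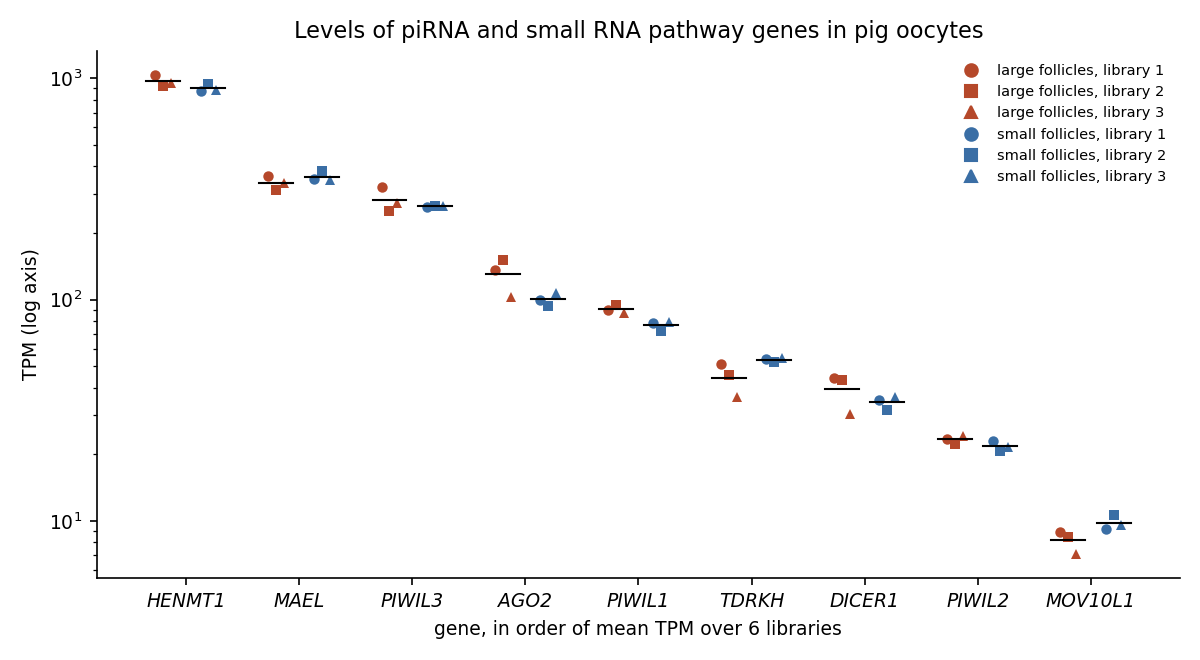
TPM (log axis) of the 9 genes in each library, large-follicle libraries left of small-follicle libraries for each gene, with a bar at each group's mean. HENMT1 lies between 878 and 1037 TPM and MOV10L1 between 7.10 and 10.6 TPM, and both groups keep the same order.

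PIWIL3 held most of the PIWI transcripts in every library. Its share of the summed TPM of PIWIL1, PIWIL2, PIWIL3 and PIWIL4 was 71.1 ± 2.85% in the large and 72.9 ± 0.927% in the small libraries (SD, n = 3 each). PIWIL1 held 23.0 ± 2.53% in the large and 21.1 ± 0.758% in the small libraries, and PIWIL2 5.92 ± 0.475% in the large and 6.01 ± 0.252% in the small libraries. PIWIL4, the PIWI gene of nuclear silencing in fetal mouse male germ cells, had 3, 2 and 0 reads in the large-follicle libraries, and 5, 2 and 2 reads in the small-follicle libraries. For all 3 abundant PIWI genes the ranges of the shares overlapped between the groups.

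Of the AGO genes, AGO2 and AGO3 had rows in the table, and AGO1 and AGO4 were not analysed here. AGO2, which encodes the Argonaute protein able to cut its target, held 94.3 to 94.5% of the summed AGO2 and AGO3 TPM in the large libraries and 92.4 to 93.3% in the small libraries. The groups did not overlap in this share. TPM divides by gene length, and the length implied by counts and TPM differed between these genes. It was 5.19 times that of the median gene for AGO3 and 1.55 times for AGO2, so AGO3 held a larger share of reads than of TPM. In reads AGO3 had 1037, 2872 and 312 in the large-follicle libraries, beside 5073, 14752 and 1527 for AGO2. In the small-follicle libraries AGO3 had 2670, 1579 and 1855 reads, beside 10084, 5746 and 7667 for AGO2. AGO3 stood at 8.26, 8.78 and 6.25 TPM in the large-follicle libraries, and at 7.90, 7.64 and 7.73 TPM in the small-follicle libraries. Its TPM range in the large libraries enclosed that in the small libraries. A pseudogene, LOC110261116, overlaps AGO3 in the annotation, and reads of these 2 cannot be told apart here.

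**Figure D2:**
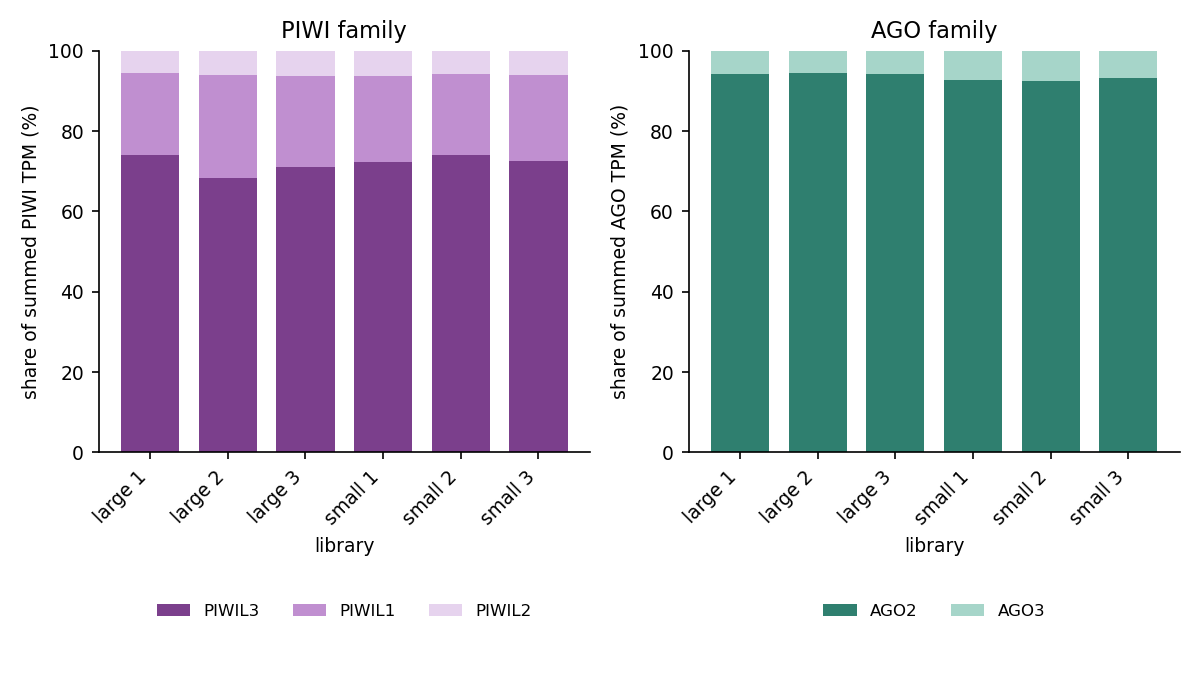
Share (%) of the summed TPM within the PIWI and AGO families in each library, large-follicle libraries on the left. PIWIL3 holds 68.3 to 74.0% of PIWI transcripts in the large and 72.3 to 73.9% in the small libraries, and AGO2 over 92% of the summed AGO2 and AGO3 level in all 6. PIWIL4, at most 0.0253%, is too small to draw.

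The follicle groups were then compared on the counts with edgeR's quasi-likelihood test, as a log2 difference of large minus small, adjusted by Benjamini-Hochberg over all genes tested. Of the 9 genes, 0 passed at an adjusted p under 0.05, where 0.0639% of all genes tested passed. At an unadjusted p under 0.05 there were 3 of the 9, against 18.0% of all genes tested. PIWIL1 and AGO2 had higher means in large-follicle oocytes, as did 9.85% of all genes tested at that p, and the mean of TDRKH was lower there, as for 8.17% of all genes. CPM are counts scaled to library size times edgeR's TMM normalization factor. In CPM the groups did not overlap for 3 of the 9 (PIWIL1, TDRKH and MOV10L1), against 23.7% of all genes tested. Means were higher in large-follicle oocytes for 6 of the 9 and lower for 3, with 50.8% of all genes tested higher, and the median log2 difference was 0.10, against 0.0039 over all genes tested.

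**Figure D3:**
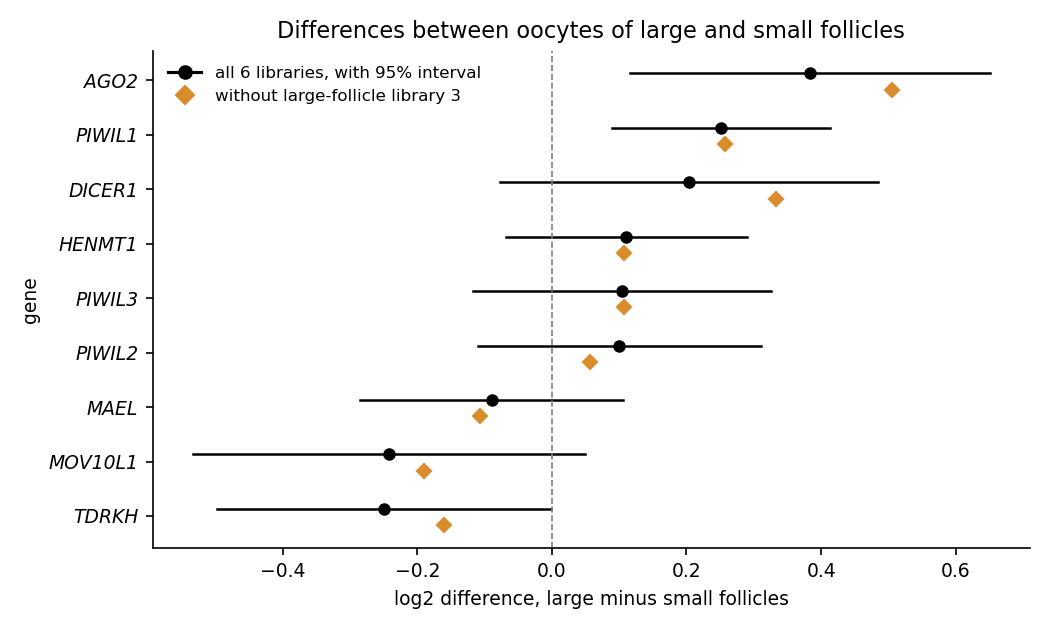
Log2 difference (large minus small follicles) of the 9 genes by edgeR, from all 6 libraries with the 95% interval (black) and without large-follicle library 3 (orange). AGO2 (0.38) and PIWIL1 (0.25) lie at the top and TDRKH (-0.25) at the bottom, and leaving out that library moves AGO2 to 0.50 and DICER1 to 0.33.

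PIWIL1, the cytoplasmic PIWI protein that binds pachytene piRNAs in mouse testis, had the clearest separation among the PIWI genes. It stood at 89.9, 94.6 and 87.1 TPM in the large-follicle libraries, and at 78.0, 72.3 and 79.2 TPM in the small-follicle libraries. Every large-follicle library was above every small-follicle library. The log2 difference was 0.25 (SE 0.072, 95% interval 0.090 to 0.41), a 1.19-fold higher level in large-follicle oocytes, with an adjusted p of 0.135 by edgeR. Large-follicle library 3 lay close to the other large-follicle libraries for this gene, and without it the difference was 0.26 and the adjusted p 0.0376 by edgeR. Over 15 alternative settings the difference was 0.20 to 0.27 and the adjusted p 0.00830 to 0.478 by edgeR, DESeq2 or limma. The smallest adjusted p was that of DESeq2 without large-follicle library 3.

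PIWIL3 stood at 323, 252 and 272 TPM in the large-follicle libraries, and at 263, 264 and 265 TPM in the small-follicle libraries. The small-follicle libraries lay close together, while large-follicle libraries 1 and 3 were above and library 2 below all of them. The log2 difference was 0.10 (SE 0.099, 95% interval -0.12 to 0.32; adjusted p = 0.612 by edgeR), and without large-follicle library 1 it was -0.0096. A pseudogene, LOC110256724, overlaps PIWIL3 in the annotation, and reads of the pair cannot be told apart here.

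PIWIL2, which in mouse binds the piRNAs of early male germ cells and helps to make them, stood at 23.5, 22.4 and 24.2 TPM in the large-follicle libraries, and at 22.9, 20.8 and 21.7 TPM in the small-follicle libraries. The groups overlapped. Its log2 difference was 0.10 (SE 0.094, 95% interval -0.11 to 0.31; adjusted p = 0.606 by edgeR).

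Among the piRNA factors, the helicase MOV10L1, the PIWI tether TDRKH and MAEL had lower means in large-follicle oocytes. TDRKH, a mitochondrial Tudor protein that holds PIWI proteins during trimming, stood at 51.1, 45.7 and 36.4 TPM in the large-follicle libraries, and at 53.8, 52.0 and 54.6 TPM in the small-follicle libraries. The small-follicle libraries were tightly grouped, and all large-follicle libraries lay below them, library 3 the most. Large-follicle library 1 lay only narrowly below, at 51.1 TPM against 52.0 TPM in small-follicle library 2. TDRKH had a log2 difference of -0.25 (SE 0.11, 95% interval -0.50 to -0.0019; adjusted p = 0.273 by edgeR). Without large-follicle library 3 it was -0.16, with an adjusted p of 0.236 by edgeR, and over the 15 alternatives it was -0.36 to -0.16 with adjusted p of 0.114 to 0.536.

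MOV10L1, the RNA helicase that feeds piRNA precursors into processing, had 184, 451 and 58 reads in the large-follicle libraries, and 509, 359 and 377 reads in the small-follicle libraries. In TPM these were 8.96, 8.43 and 7.10 in the large-follicle libraries, and 9.21, 10.6 and 9.61 in the small-follicle libraries. The groups did not overlap, but the gap between the nearest libraries was small, and the 58 reads of large-follicle library 3 carry a counting error of 13.1% alone. MOV10L1 had a log2 difference of -0.24 (SE 0.13, 95% interval -0.53 to 0.049; adjusted p = 0.356 by edgeR).

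HENMT1 stood at 1037, 922 and 947 TPM in the large-follicle libraries, and at 878, 945 and 882 TPM in the small-follicle libraries. The groups overlapped through small-follicle library 2. For HENMT1 the log2 difference was 0.11 (SE 0.079, 95% interval -0.067 to 0.29; adjusted p = 0.488 by edgeR).

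MAEL, a nuage protein needed for transposon silencing in mouse testis, stood at 362, 312 and 335 TPM in the large-follicle libraries, and at 350, 380 and 348 TPM in the small-follicle libraries. Large-follicle library 1 lay inside the small-follicle range and large-follicle libraries 2 and 3 below it. For MAEL the log2 difference was -0.089 (SE 0.087, 95% interval -0.28 to 0.11; adjusted p = 0.621 by edgeR). A long noncoding RNA, LOC110260301, overlaps MAEL in the annotation.

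AGO2 had the largest difference of the 9 genes. It stood at 136, 151 and 103 TPM in the large-follicle libraries, and at 100.1, 93.3 and 107 TPM in the small-follicle libraries. Large-follicle libraries 1 and 2 were above every small-follicle library, and large-follicle library 3 lay among them. The log2 difference was 0.38 (SE 0.12, 95% interval 0.12 to 0.65), a 1.30-fold higher level in large-follicle oocytes, with an adjusted p of 0.152 by edgeR and of 0.0451 by DESeq2, where 6.59% of genes passed. Without large-follicle library 3 the difference was 0.50 and the adjusted p 0.00612 by edgeR. Over the 15 alternatives the difference was 0.28 to 0.51 and the adjusted p 5.12e-08 to 0.478 by edgeR, DESeq2 or limma. The smallest adjusted p came from DESeq2 without large-follicle library 3, a setting added once the data had been seen.

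DICER1, the enzyme that cuts microRNA and siRNA precursors, stood at 44.3, 43.3 and 30.3 TPM in the large-follicle libraries, and at 35.4, 31.7 and 36.2 TPM in the small-follicle libraries. Large-follicle libraries 1 and 2 were the highest of the 6 and large-follicle library 3 the lowest. DICER1 had a log2 difference of 0.20 (SE 0.13, 95% interval -0.078 to 0.48; adjusted p = 0.417 by edgeR). Without large-follicle library 3 it was 0.33 and the adjusted p 0.0164 by edgeR. Over the 15 alternatives the difference was 0.11 to 0.33 and the adjusted p 0.000508 to 0.750 by edgeR, DESeq2 or limma. Again DESeq2 without large-follicle library 3 gave the smallest adjusted p.

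In the comparison without large-follicle library 3, of 2 large-follicle against 3 small-follicle libraries, 3 of the 9 genes passed (PIWIL1, AGO2 and DICER1), all higher in large-follicle oocytes, where 13.2% of all genes tested passed and 7.79% passed as higher. DESeq2 without that library called the same 3, where 21.2% of genes passed. The log2 differences without it were 0.057 for PIWIL2, 0.11 for PIWIL3, 0.11 for HENMT1, -0.11 for MAEL and -0.19 for MOV10L1, and none of these passed. The left-out library was below the other 5 in CPM for DICER1, TDRKH and MOV10L1 and above them for PIWIL2. Its log2 ratio to the mean of large-follicle libraries 1 and 2 was -0.49 for DICER1, -0.44 for AGO2, -0.37 for TDRKH and -0.25 for MOV10L1, and between -0.043 and 0.12 for the other 5 genes.

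**Figure D4:**
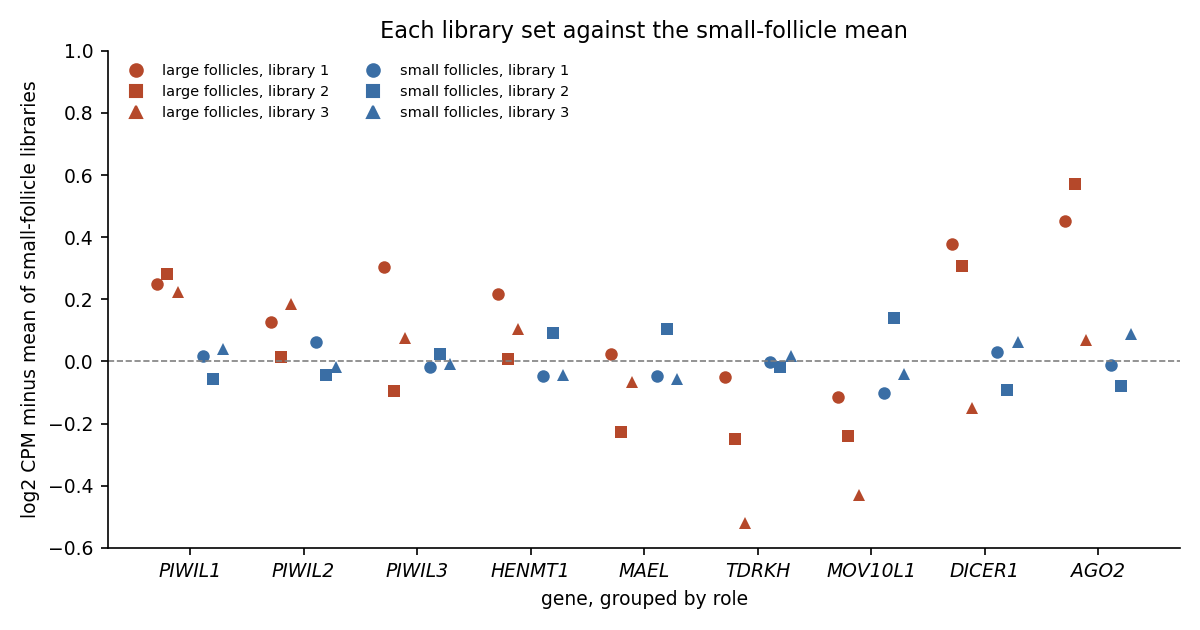
Log2 CPM of the 9 genes in each library minus the mean of the small-follicle libraries, large-follicle libraries left of small-follicle libraries for each gene. Large-follicle library 3 (red triangles) lies below large-follicle libraries 1 and 2 for DICER1 and AGO2, and by less for TDRKH and MOV10L1. It lies beside them for PIWIL1.

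The libraries differed in how levels ran with gene length. The gene model length implied by the ratio of counts to TPM was 2.88 times that of the median gene for DICER1 and 1.55 times for AGO2, and 0.383 to 0.849 times for the other 7 genes. Over all genes tested, the median log2 deviation of the longest 20% of genes minus that of the shortest 20% was 0.12, 0.10 and -0.12 in the large-follicle libraries, and -0.024, -0.097 and -0.021 in the small-follicle libraries. With a length trend taken out of each library, a step added once the data had been seen, the log2 difference of DICER1 was 0.11, that of AGO2 0.36 and that of PIWIL1 0.27, with adjusted p of 0.554, 0.119 and 0.101 by edgeR. TDRKH and MOV10L1, which were also low in large-follicle library 3, have model lengths of 0.746 and 0.849 times the median. Whether gene length accounts for any of these values was not tested.

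The pattern of AGO2 across the 6 libraries had the largest range of the 9 genes, 0.65 on the log2 scale. Among 8007 named genes with a mean of at least 10 CPM, the genes closest to it were CHD1, ARID2 and SOS1, with root-mean-square differences of 0.028, 0.034 and 0.037 in mean-centred log2 CPM over 6 libraries. CHD1 stood at 138, 144 and 103 CPM in the large-follicle libraries, and at 96.2, 89.4 and 102 CPM in the small-follicle libraries.

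The rest of the piRNA pathway was taken from a list of 35 genes, of which 34 had a row and 30 were tested. By edgeR 0 passed in either direction, and by DESeq2 3 of the 28 with an adjusted p passed (MYBL1, THOC1 and THOC2, all higher in large-follicle oocytes), where 6.59% of all genes passed. At an unadjusted p under 0.05 there were 4 with higher and 3 with lower means in large-follicle oocytes, against 9.85% and 8.17% of all genes tested, and the list's median log2 difference was 0.064. The most abundant were FKBP6, a chaperone partner of PIWI proteins (631 ± 54.9 TPM in the large and 712 ± 3.40 TPM in the small group), UHRF1, a DNA methylation cofactor (323 ± 33.5 and 281 ± 28.0 TPM in large and small groups), the Tudor gene TDRD1 (184 ± 23.7 and 179 ± 10.2 TPM in large and small groups) and the Tudor gene RNF17 (167 ± 15.8 and 149 ± 5.34 TPM in large and small groups; SD, n = 3 each).

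PNLDC1, MYBL1, THOC1 and THOC2 were named for the 4 smallest p of this piRNA list by edgeR. Separated groups are favoured by that choice. PNLDC1, the exonuclease that trims piRNA ends, stood at 146, 125 and 128 TPM in the large-follicle libraries, and at 162 TPM in each small-follicle library. All large-follicle libraries were below all small-follicle libraries. Its log2 difference was -0.28 (SE 0.086, adjusted p = 0.152 by edgeR). That of TDRKH, the tether on which trimming takes place in mouse, was -0.25 (adjusted p = 0.273 by edgeR). A link between these genes was not tested. MYBL1, the transcription factor that in mouse testis switches on pachytene piRNA genes, stood at 89.4, 107 and 82.3 TPM in the large-follicle libraries, and at 71.4, 62.0 and 75.3 TPM in the small-follicle libraries, without overlap. Its log2 difference was 0.43 (SE 0.10; adjusted p = 0.103 by edgeR). THOC1 (0.37, SE 0.092) and THOC2 (0.38, SE 0.11) also had higher means. They encode subunits of an mRNA export complex that acts on piRNA precursors in Drosophila. With all 6 libraries their adjusted p were 0.108 and 0.138 by edgeR, and 0.0183 and 0.0384 by DESeq2. Without large-follicle library 3, FKBP6 passed as lower in large-follicle oocytes. BTBD18, MYBL1, RNF17, THOC1 and THOC2 were among the genes that passed as higher. In that fit 7 of 31 list genes passed, 6 of them higher, where 13.2% of all genes tested passed and 7.79% passed as higher. With any other single library left out, 0 genes of this list passed.

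The microRNA and siRNA pathway list held 42 genes besides DICER1 and AGO2, of which 38 had a row and were tested, and 0 passed in either direction by edgeR. By DESeq2 3 of 38 passed, ERI1 and TUT7 as higher and PTGES3 as lower in large-follicle oocytes, a share near the 6.59% of all genes. At an unadjusted p under 0.05 there were 9 with higher means and 1 lower in oocytes of large follicles, against 9.85% and 8.17% of all genes tested, and the median log2 difference was 0.062. DGCR8, TUT7, ERI1 and PTGES3 were likewise named for the 4 smallest p of their list by edgeR, a choice that favours separated groups. DGCR8, the RNA-binding partner of the nuclear microRNA processor DROSHA, stood at 69.8, 79.9 and 77.0 TPM in the large-follicle libraries, and at 64.9, 64.2 and 65.7 TPM in the small-follicle libraries, without overlap. Its log2 difference was 0.23 (SE 0.072; adjusted p = 0.161 by edgeR). TUT7, which adds uridines to RNA ends, had a log2 difference of 0.43 (SE 0.095; adjusted p = 0.0970 by edgeR), and the exonuclease gene ERI1 by 0.25 (SE 0.071; adjusted p = 0.138 by edgeR).

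PTGES3, the HSP90 co-chaperone p23 that aids the loading of Argonaute proteins, stood at 43.6, 40.8 and 39.9 TPM in the large-follicle libraries, and at 57.4, 59.0 and 58.7 TPM in the small-follicle libraries. The groups were well apart, in a gene that was named for its small p. Its log2 difference was -0.49 (SE 0.084; adjusted p = 0.0774 by edgeR), and without large-follicle library 3 its adjusted p was 0.00961. Over the 15 alternatives the difference was -0.54 to -0.45 and the adjusted p 3.62e-05 to 0.418 by edgeR, DESeq2 or limma. DESeq2 without large-follicle library 3 gave the smallest adjusted p here too. The most abundant genes of the list were the chaperone genes DNAJB1 (450 ± 28.3 TPM in the large and 443 ± 14.1 TPM in the small group), HSPA8 (445 ± 37.2 TPM in the large and 428 ± 24.4 TPM in the small group), HSP90AB1 (429 ± 20.4 TPM in the large and 414 ± 15.8 TPM in the small group) and DNAJA2 (369 ± 8.87 TPM in the large and 332 ± 9.06 TPM in the small group; SD, n = 3 each). Without large-follicle library 3, PTGES3 passed as lower and DCP2, ERI1, IPO8, TNRC6B and TUT7 as higher in large-follicle oocytes. These were 6 of 38 list genes tested, a share near the 13.2% of all genes that passed there. PTGES3 also passed as lower without large-follicle library 1, and with any other single library left out 0 genes of the list passed.

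**Figure D5:**
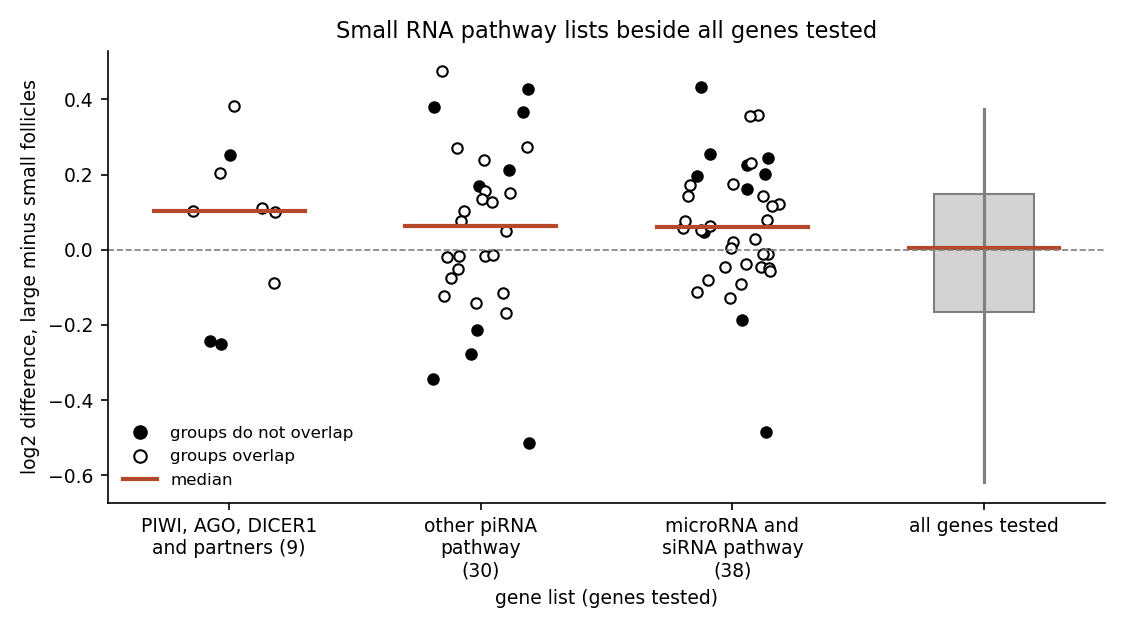
Log2 difference (large minus small follicles) of each tested gene of 3 lists, beside the median, quartiles and 5th to 95th percentiles of all genes tested. Filled points are genes whose groups do not overlap, and the list medians are 0.10, 0.064 and 0.062 against 0.0039 for all genes.

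In assembly Sscrofa11.1, PIWIL1 spans 24729346 to 24760056, PIWIL2 6560402 to 6632524 and PIWIL3 42834819 to 42869486, all on chromosome 14. On chromosome 4 lie AGO2 from 2966794 to 3012388, MAEL from 83990266 to 84040465, TDRKH from 97415891 to 97438262 and HENMT1 from 111364456 to 111382582. MOV10L1 lies on chromosome 5 from 509868 to 567429, and DICER1 on chromosome 7 from 116361630 to 116436471. These are whole gene spans, exons and introns together.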

How the data were processed

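RNA of denuded pig oocytes was sequenced in 6 libraries made with a directional kit, per the labels' protocols. The authors' deposited table has 19296 rows, each with a gene's raw read counts and its TPM values, scaled by the authors for gene length and depth. Sscrofa11.1 is the build in the submitters' processing notes. Not given in the sources used here are aligner, counter, annotation release and use of strand, so overlapping genes and near-identical copies can share reads. Rows with a date as name (25, with 0.153% of reads on average) were left out, and 853 of 4604 rows named by an Ensembl identifier were given a unique symbol. Gene positions are from RefSeq, by symbol.

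Counts were tested with edgeR 4.0.16 in R 4.3.3 (TMM, filterByExpr, robust quasi-likelihood F test, group alone), with Benjamini-Hochberg adjustment over 14091 genes and a threshold of 0.05. SE was derived from the log2 difference and F. Counting errors cover counting alone. Alternatives used DESeq2 1.42.0, limma 3.58.1 on log2(TPM + 1), other scalings and filters, a replicate block, a length offset and each library left out. Library pairs within a group exceeded sampling noise (10.6 to 22.1 in chi-square per degree of freedom), and scripts were tested on simulated counts. Members and lists were chosen with earlier results of these data known. Named genes are all members, the 4 with the highest mean TPM and the 4 with the smallest p of each other pathway list, and the 3 closest in pattern to the member with the largest range. PIWIL4, AGO3, and list genes named for passing without large-follicle library 3 were named after their values were seen. A result of the piRNA pathway list is not reported here.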

Additional observations from a re-analysis of the deposited data

How the results depend on the processing

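The count of genes passing over all genes tested, 9 by edgeR, was 14 with library size alone, 52 without a filter, 20 at 5 CPM in 3 libraries, 41 with a length offset, 679 by DESeq2 and 2493 by DESeq2 without large-follicle library 3. It was 0 with DESeq2's size factors in edgeR and 0 by limma on log2(TPM + 1), with 2525 and 2193 genes at an unadjusted p under 0.05. Leaving out a single library gave 0 to 1899. Of the 9 pathway genes, 0 passed in the comparison of all libraries, 1 (AGO2) by DESeq2, 3 by DESeq2 without large-follicle library 3, and 0 to 3 with a single library left out. Of the other pathway genes 0 passed, 6 by DESeq2, 1 without a filter, 18 by DESeq2 without large-follicle library 3, and 0 to 13 with a single library left out. The length offset and DESeq2 without large-follicle library 3 were added after seeing the data. The cause was not tested. The direction of each of the 9 held under 15 alternatives, except PIWIL3 without large-follicle library 1 (-0.0096, and 0.20 without library 2). Same-numbered libraries deviated with correlations of -0.095, 0.0028 and -0.16, so no pairing by number was seen. So few libraries cannot show whether same-numbered ones shared a collection. With the replicate number as a block 24 genes passed, 7 of them among the 9 genes called without a block, and 0 of the pathway genes did. Of the 9 genes, MOV10L1 had the fewest reads in large-follicle library 3, the shallowest with 8015357 reads.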
